A study of Mus musculus with 4 samples.

Results

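Bmp2, Bmp3, Bmp4, Bmp5, Bmp6 and Bmp7, 6 of the secreted bone morphogenetic protein (BMP) ligands of the mouse, were followed through single-cell RNA profiles of developing molars. They were selected by gene symbol, which picked 6 of the 32285 genes in the count matrices, and all 6 were detected in all 4 libraries. The libraries were the maxillary and the mandibular molar of wild-type embryos (titled E15 and dissected at E15.5) and of wild-type pups (titled P1 and dissected at P0 or P1), all labelled WTB6 (C57BL/6J mice in the study's methods) and without any treatment. The labels give 6 animals, while the study's methods give 6 tooth organs pooled per sample. Each combination of stage and jaw was thus a single sample. No test between conditions was run, no p-value is given, and every interval below covers counting error only.

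BMPs are dimeric ligands of the TGF-beta superfamily. They bind type I receptors (Bmpr1a, Bmpr1b, Acvr1) together with type II receptors (Bmpr2, Acvr2a, Acvr2b). The type II receptors activate the type I receptors, which phosphorylate SMAD1, SMAD5 and SMAD9, and these SMADs switch on target genes such as the Id and Msx families. In the tooth, BMP signals pass back and forth between epithelium and mesenchyme, and BMP2 and BMP4 are classical signals of the enamel knot, the dental papilla and the odontoblasts that lay down dentin. BMP3 stands apart from the others because it is known mainly as an antagonist of BMP signalling in bone.

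The coding ends of the 6 genes are shown because they carry the cysteine-rich carboxy terminus that defines the family and because they show how far the genes can be told apart by sequence. Each line gives the last 60 coding bases before the stop codon of the principal GENCODE transcript, 5′ to 3′, and capitals mark the 21 positions at which all 6 genes hold the same base.
Bmp2: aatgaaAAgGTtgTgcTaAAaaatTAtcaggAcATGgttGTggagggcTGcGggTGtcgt
Bmp3: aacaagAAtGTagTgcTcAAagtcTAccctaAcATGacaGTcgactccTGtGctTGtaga
Bmp4: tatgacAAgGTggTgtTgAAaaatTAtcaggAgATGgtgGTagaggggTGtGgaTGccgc
Bmp5: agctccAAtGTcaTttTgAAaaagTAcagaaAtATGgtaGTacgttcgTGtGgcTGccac
Bmp6: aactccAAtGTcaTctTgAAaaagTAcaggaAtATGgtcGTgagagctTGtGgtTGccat
Bmp7: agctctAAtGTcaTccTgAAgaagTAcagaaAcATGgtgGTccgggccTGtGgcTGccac

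Over these 60 bases Bmp5 and Bmp7 were 83.3% identical, Bmp5 and Bmp6 81.7%, and Bmp2 and Bmp4 78.3%. Bmp2 and Bmp5 shared the fewest bases, at 48.3%. The longest run shared exactly by any pair of member transcripts was 47 bases, between Bmp3 and Bmp4, against a cDNA read of 90 bases. In GRCm38 (mm10; GENCODE vM21) the genes lie on 5 chromosomes. Bmp2 spans chr2:133552159-133562885 on the plus strand and Bmp7 chr2:172868012-172940321 on the minus strand. Bmp3 spans chr5:98854415-98884396 on the plus strand, and Bmp5 chr9:75775364-75900310 on the plus strand. Bmp6 spans chr13:38345107-38500302 on the plus strand, and Bmp4 chr14:46383520-46390669 on the minus strand. All 6 are annotated as protein coding.

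The libraries held 109723360 UMIs (E15.5 maxillary), 86659227 (E15.5 mandibular), 128812956 (P1 maxillary) and 139873101 (P1 mandibular). After filtering, 8457, 6066, 13811 and 8180 cells were kept, with median depths of 9914, 11601, 3976 and 11008 UMIs per cell. Cells were clustered within each library and clusters were named from marker genes, giving epithelium-like cells (707, 91, 2091 and 1693 in the same order) and mesenchyme-like cells (5032, 2467, 8274 and 4550). Levels are in CPM, the UMIs of the gene scaled to 1000000 UMIs of the cells in question, with the exact Poisson 95% interval. A UMI counts 1 molecule at its 3′ end and is not divided by gene length, so levels were compared within a gene.

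The P1 libraries stood apart in a way that bears on every P1 value. They shared 7131 barcodes, while any other pair of libraries shared 28 to 70. The shared barcodes had a median of 12088 UMIs in the maxillary file and 2870 in the mandibular file, with a median log2 ratio of -2.07 (mandibular over maxillary), and they were dropped from the mandibular library. Which jaw these cells came from was not settled by the files, so P1 values from the shared set are called maxillary only by the library that holds them. Within the P1 maxillary library, 5897 of the kept cells carried a shared barcode and 7914 did not, with median depths of 12218 and 2522.5 UMIs. The shared set held 1380 of the 1392 dental papilla-like cells, 178 of the 179 ameloblast-like cells and 364 of the 380 cells resembling inner dental epithelium. None of the 377 nasal epithelium-like cells and 2 of the 628 neuron-like cells were in it. In mesenchyme-like cells the Y-linked gene Ddx3y was at 12.0 CPM in the shared set and 53.4 in the rest, against 7.43 in P1 mandibular. Hand2, a transcription factor of the mandibular arch, had 4 UMIs in the shared set and 0 in the rest, where a count of 0 allows up to 3, against 536 in P1 mandibular mesenchyme. Levels of the ligands in both sets are therefore given beside the P1 maxillary compartment values where they differ most.

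The E15.5 mandibular epithelium was a single cluster of 91 cells, led by the oral keratins Krt13, Krt5 and Krt14. P1 maxillary epithelium included nasal and gland-like cells that the mandibular sample held few or none of. The make-up of the compartments therefore cannot be told apart from stage and jaw in the compartment comparisons. The P1 maxillary gland-like cluster had the gland markers Wfdc18 and Krt19 and the nasal markers Reg3g and Cyp2f2 among its leading genes. Of its 207 cells, 2 carried shared barcodes. Stage ratios of gland-like cells below set this cluster beside an E15.5 maxillary cluster led by Wfdc18.

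Bmp2 was at a higher level in mesenchyme than in epithelium at P1, and its mesenchymal level was higher at P1 than at E15.5. In mesenchyme-like cells it was at 18.4 CPM at E15.5 maxillary and 17.4 at E15.5 mandibular. At P1 it was at 183 in maxillary and 111 in mandibular mesenchyme. Both P1 samples lay above both E15.5 samples, with a log2 ratio of P1 to E15.5 of 3.32 (95% exact binomial interval 3.23 to 3.41) in the maxillary and 2.67 (2.55 to 2.79) in the mandibular molar. In the P1 maxillary library the level was 214 in the shared set and 35.2 in the rest. Mesenchymal classes named at both stages differed in this. Bmp2 was at 20.6 and 480 (E15.5, then P1) in maxillary papilla-like cells (log2 ratio 4.55, 4.17 to 4.95) and 16.4 and 18.8 in maxillary connective tissue fibroblast-like cells (0.19, -0.16 to 0.54). In the mandibular molar it was at 5.21 and 30.3 in tendon or ligament-like cells (2.54, 1.67 to 3.54), 16.8 and 28.4 in jaw mesenchyme-like cells (0.76, 0.48 to 1.05), and 11.4 and 19.9 in follicle-like cells (0.81, -0.066 to 1.67). The mandibular follicle-like class was a cluster led by Itgbl1, Tfap2b and Pappa2 at E15.5. At P1 it was a cluster led by Bmp3, Mdga2 and Ibsp, with no leading gene in common. Its stage ratios, here and below, therefore compare different clusters. The maxillary papilla-like class was a cluster led by Plppr1 and Kirrel3 at E15.5 and clusters led by Grik1 and by Dab1 at P1. Nearly all its P1 cells carried shared barcodes. Its E15.5 cluster shared the leading genes Gabrg3 and Tac1 with a P1 maxillary cluster left without a subtype name. Stage ratios of this class, here and below, therefore compare different clusters. In epithelium-like cells Bmp2 was at 12.4 and 7.04 CPM at E15.5 and 3.97 and 2.89 at P1 (maxillary, then mandibular).

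Within P1 mesenchyme, Bmp2 was concentrated in the dental papilla and in a cluster of each jaw called here the Dmp1 and Phex cluster. Dmp1 and Phex, genes of odontoblasts and bone cells, were among the leading genes of both clusters, as were Bglap and Bglap2. In the maxillary cluster Bglap and Bglap2 came first. The largest maxillary papilla-like cluster, of 1164 cells, had 511 CPM (499 to 523). A second maxillary papilla-like cluster had 312, and 4 mandibular papilla-like clusters had 313, 156, 81.8 and 60.6. Over the papilla-like classes as named, Bmp2 was at 480 (470 to 491) in the maxillary and 155 (150 to 160) in the mandibular library, a log2 ratio of 1.63 (1.57 to 1.69). Since 1380 of the 1392 maxillary papilla-like cells carried shared barcodes, this ratio compares cells of unsettled jaw with mandibular cells. The maxillary class held 2 clusters and the mandibular class 4, and maxillary mesenchymal clusters without a subtype name, led by Gabrg3 and Pappa and by Csmd1 and Stbd1, were at 146 and 86.3. The Dmp1 and Phex cluster had 421 (398 to 444) in the mandibular molar, where it was odontoblast-like, and 264 (251 to 278) in the maxillary molar, where bone markers kept it from that name. Dspp, which encodes the main non-collagenous protein precursor of dentin, was at 2333 CPM in the former and 407 in the latter. Bmp2 was therefore higher in the papilla than in the Dmp1 and Phex cluster of the maxillary library and lower in that of the mandibular library. Of the 281 cells of the maxillary Dmp1 and Phex cluster, 274 also carried shared barcodes, so no contrast between jaws was read from this. A Bmp2 UMI was seen in 95.1% of cells of the largest maxillary papilla cluster, or 58.4% after cells were thinned to 2000 UMIs, with shallower cells left out (1 of 1164 here). In immune and erythroid cells of the same library, taken as background, the shares were 1.87% of 1548 cells and 1.43% of the 841 cells deep enough to be thinned, with median depths before thinning of 11392 and 2078.5 UMIs for papilla and background.

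At E15.5 the Bmp2 signal was spread more thinly. An unnamed-subtype mesenchymal cluster of 83 cells in the mandibular molar, led by Col8a1, Plppr1 and Lypd1, had 174 CPM (149 to 201), and an Alx1- and Pax3-expressing maxillary cluster had 95.9 (85.8 to 107). The macrophage clusters, led by C1qa, had 51.4 (mandibular) and 43.3 (maxillary). Immune cells were the highest named class for Bmp2 in both E15.5 libraries, although their interval overlapped that of the next class in each. Immune cells are thus not free of Bmp2, and the background shares for this gene include their signal.

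**Figure D1:**
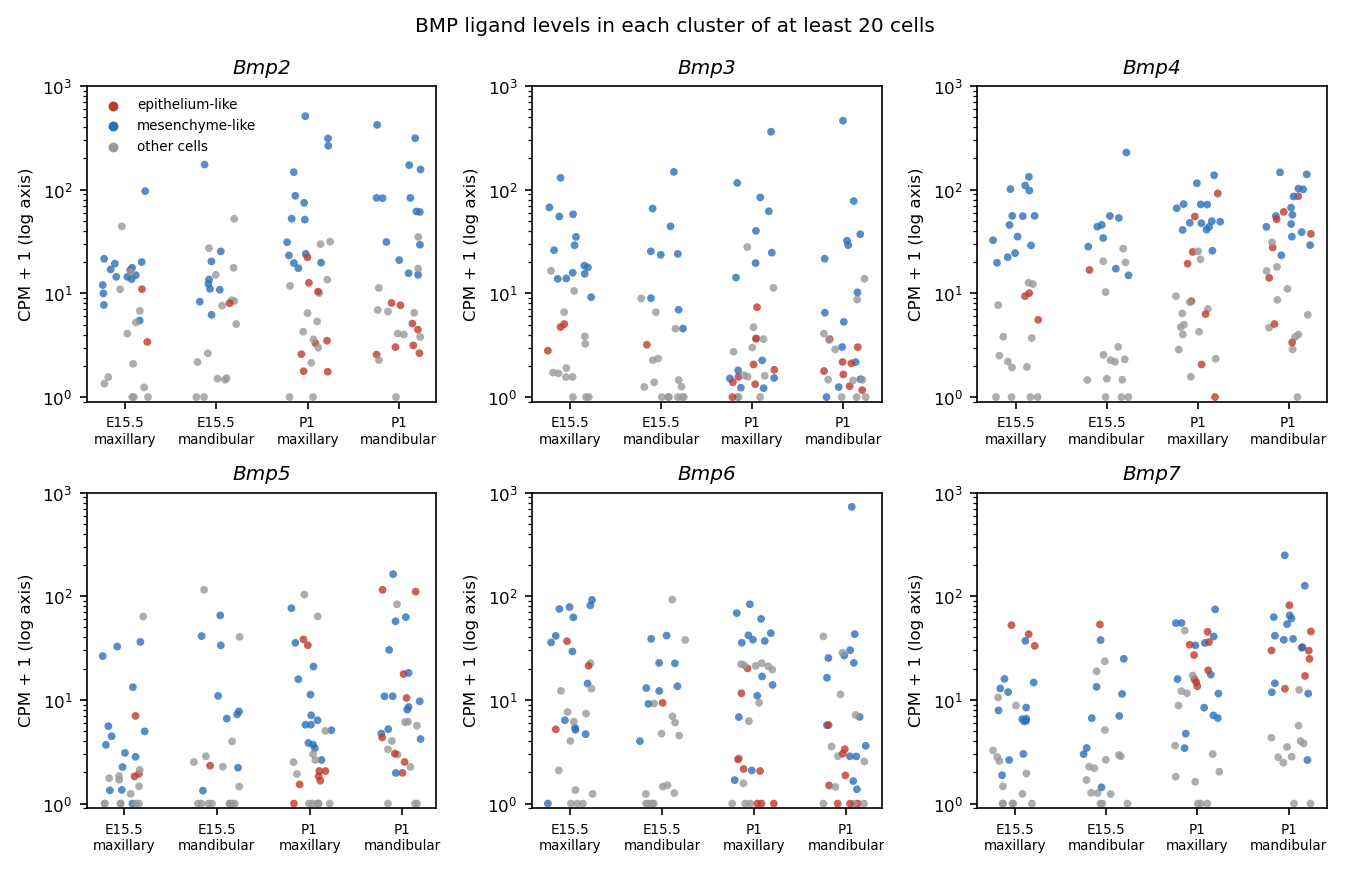
Level of each BMP ligand (CPM + 1, log axis) in every cluster of at least 20 cells, by library; each point is a cluster, coloured epithelium-like, mesenchyme-like or other. The highest Bmp2 points are P1 mesenchymal clusters, up to 511 CPM, and the single high Bmp6 point at 726 is a P1 mandibular cluster of 24 cells.

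Bmp4 was present in the mesenchyme of both stages and, at P1, also in dental epithelium. In mesenchyme-like cells it was at 58.8 and 36.7 CPM at E15.5 and at 69.9 and 68.1 at P1 (maxillary, then mandibular). The P1 to E15.5 ratio in mesenchyme stayed under 2-fold in both jaws, with log2 values of 0.25 (0.18 to 0.31) and 0.89 (0.80 to 0.98). The P1 maxillary mesenchyme was at 75.4 in the shared set and 43.5 in the rest, which is below the E15.5 level. In epithelium-like cells the level went from 6.28 to 35.1 in the maxillary molar and from 15.8 to 46.5 in the mandibular molar, and the log2 ratios were 2.48 (2.14 to 2.85) and 1.55 (1.08 to 2.08). The P1 maxillary epithelium was at 43.2 in the shared set and 4.07 in the rest, which is below the E15.5 level. Within the suprabasal oral class, which made up all E15.5 mandibular epithelium, mandibular Bmp4 was at 15.8 at E15.5 and 2.36 at P1, a log2 ratio of -2.75 (-5.85 to -0.79). The maxillary suprabasal class was at 4.56 and 5.32, a log2 ratio of 0.22 (-0.96 to 1.28). Maxillary cells resembling inner dental epithelium were at 9.05 at E15.5 and 54.2 at P1, a log2 ratio of 2.58 (2.03 to 3.19). At E15.5 the highest maxillary cluster was papilla-like, at 132 (119 to 146), and the 83-cell mandibular cluster that was high in Bmp2 was also highest for Bmp4, at 227 (199 to 259). The maxillary papilla-like class at P1 was at 61.4, a log2 ratio to E15.5 of -1.10 (-1.28 to -0.93). At P1 the Dmp1 and Phex clusters were at 137 (maxillary) and 140 (mandibular), and ameloblast-like cells, which secrete enamel matrix, at 90.9 (79.6 to 103) and 85.4 (78.2 to 93.0). The intervals of the jaws overlapped in each of these P1 clusters.

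Bmp7 was at a higher level in epithelium than in mesenchyme at E15.5 and present in both compartments at P1. At E15.5 it was at 45.1 CPM in maxillary and 52.3 in mandibular epithelium against 7.27 and 8.58 in mesenchyme. Mesenchyme-like cells held 39.6% of the Bmp7 UMIs of the E15.5 maxillary and 52.4% of those of the E15.5 mandibular library, and epithelium-like cells 53.7% and 20.4%. At P1 epithelium was at 31.5 and 28.9, and mesenchyme at 34.4 and 41.8. The log2 ratio of epithelium to mesenchyme was thus 2.63 (2.44 to 2.82) and 2.61 (2.29 to 2.92) at E15.5, and -0.13 (-0.26 to -0.0032) and -0.53 (-0.66 to -0.41) at P1. In mesenchyme the P1 level was above the E15.5 level in both jaws, with log2 ratios of 2.24 (2.09 to 2.40) and 2.28 (2.11 to 2.46). Classes named at both stages varied, with 13.7 and 28.5 (E15.5, then P1) in maxillary papilla-like cells, 10.2 and 5.68 in maxillary connective tissue fibroblast-like cells (log2 ratio -0.85, -1.44 to -0.29), and 10.8 and 10.5 in mandibular jaw mesenchyme-like cells (-0.05, -0.47 to 0.36). Mandibular follicle-like cells were at 2.44 and 30.8 (3.66, 2.39 to 5.20), the P1 value being that of the cluster led by Bmp3, Mdga2 and Ibsp, and mandibular tendon or ligament-like cells were under 2 CPM at both stages. Epithelial classes varied too. Mandibular suprabasal cells, which made up all E15.5 mandibular epithelium, were at 52.3 and 11.8 (-2.15, -3.25 to -1.22). Maxillary suprabasal cells were at 51.5 and 35.1 (-0.55, -0.95 to -0.17) and gland-like cells at 42.0 and 14.8 (-1.50, -2.45 to -0.66). Maxillary cells resembling inner dental epithelium were at 32.2 and 44.4 (0.46, 0.12 to 0.81). In the P1 maxillary mesenchyme the shared set was at 38.9 and the rest at 12.6, and in epithelium they were at 34.7 and 18.9. The odontoblast-like cluster had 125 (113 to 138) and its maxillary counterpart 73.6 (66.8 to 80.9). Cells resembling inner dental epithelium, which gives rise to ameloblasts, had 80.6 (68.4 to 94.4) in the mandibular and 44.4 (38.9 to 50.4) in the maxillary molar, although different clusters carry that name in the jaws.

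**Figure D2:**
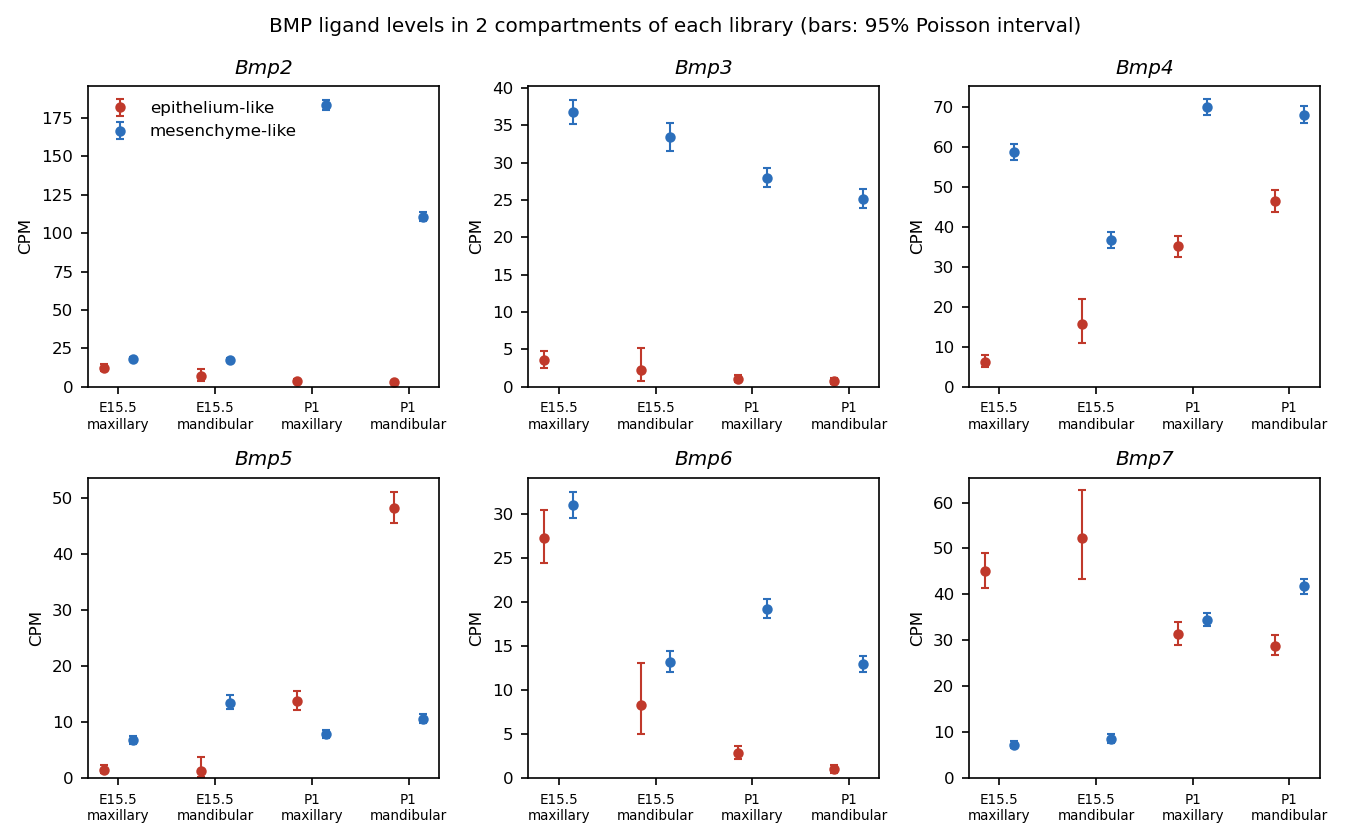
Level of each BMP ligand (CPM, linear axis from 0) in epithelium-like (red) and mesenchyme-like (blue) cells of the 4 libraries; bars are 95% Poisson intervals of counting error. Bmp2 mesenchyme stands at 183 and 111 at P1 against 18.4 and 17.4 at E15.5, and Bmp7 is above mesenchyme in epithelium at E15.5 only.

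Bmp5 was low in most cells, and its epithelial level was higher at P1 than at E15.5. In epithelium-like cells it was at 1.57 and 1.32 CPM at E15.5 and at 13.8 and 48.2 at P1 (maxillary, then mandibular). The E15.5 mandibular value rested on 3 UMIs, so that its P1 to E15.5 log2 ratio of 5.19 had an interval of 3.64 to 7.47, and the maxillary ratio was 3.14 (2.47 to 3.89). Within classes named at both stages, Bmp5 was at 1.32 and 9.44 in mandibular suprabasal cells (log2 ratio 2.84, 0.78 to 5.39) and 0.829 and 1.06 in maxillary suprabasal cells (0.36, -2.98 to 2.84). It was at 0.937 and 32.7 in maxillary cells resembling inner dental epithelium (5.12, 3.55 to 7.42) and 6.00 and 1.06 in gland-like cells (-2.50, -7.94 to 0.31). At P1 epithelial Bmp5 was lower in the maxillary than in the mandibular molar, with a log2 ratio of -1.81 (-2.0 to -1.61), and the maxillary level was 16.8 in the shared set and 2.40 in the rest. In P1 maxillary mesenchyme these sets were at 4.58 and 23.9. Ameloblast-like cells were at 37.3 (30.2 to 45.6) in the maxillary and 110 (101 to 118) in the mandibular molar. An additional mandibular epithelial cluster led by Stmn2, Frem2 and Otof was at 114 (103 to 126). Cells resembling inner dental epithelium were at 32.7 (28.0 to 37.9) in the maxillary and 16.8 (11.5 to 23.7) in the mandibular molar. The maxillary cluster of that name shared the leading genes Vwde, Igfbpl1, Frem2, Tspear and Cyp26a1 with the Stmn2-led mandibular cluster, so that no order of the jaws was read from this class. A Bmp5 UMI was seen in 44.1% of mandibular ameloblast-like cells, or 14.6% after thinning, against 0.683% and 0.216% of immune and erythroid cells, with median depths of 13636 and 5364 UMIs. Thinning left out 10 of the 447 ameloblast-like and 246 of the 1171 immune and erythroid cells. Outside the epithelium, pericyte-like cells were at 62.7 and 114 at E15.5 and 62.9 and 82.5 at P1. The highest named class of the P1 maxillary library was a group of 42 chondrocyte-like cells at 103 (61.8 to 160), from 19 UMIs, whose interval overlapped that of the pericytes. At E15.5 tendon or ligament-like cells were at 64.3 in the mandibular and osteoblast-like cells at 35.2 in the maxillary molar.

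Bmp3 was a mesenchymal transcript in all 4 libraries, with 96.4%, 94.7%, 95.9% and 97.7% of its UMIs in mesenchyme-like cells. Its mesenchymal level was 36.7 and 33.4 CPM at E15.5 and 28.0 and 25.2 at P1, a narrow range in which P1 was below E15.5 by 0.39 and 0.41 on the log2 scale. Classes named at both stages varied. Bmp3 was at 14.4 and 0.308 (E15.5, then P1) in maxillary papilla-like cells (log2 ratio -5.55, -7.25 to -4.21). Maxillary connective tissue fibroblast-like cells were at 49.4 and 60.9 (0.30, 0.11 to 0.50). Mandibular follicle-like cells were at 147 and 462 (1.65, 1.45 to 1.85), and jaw mesenchyme-like cells at 6.80 and 20.6 (1.60, 1.21 to 2.0). Mandibular tendon or ligament-like cells were at 23.0 and 36.2 (0.65, 0.17 to 1.15). The highest Bmp3 clusters carried genes of the dental follicle and of bone. By named class, connective tissue fibroblast-like cells were highest in both maxillary libraries, at 49.4 at E15.5 and 60.9 at P1. Their P1 interval overlapped that of the next class. In P1 mandibular they came second, at 76.7. A P1 mandibular cluster of 98 cells led by Bmp3, Mdga2 and Ibsp was at 462 (423 to 504). Its 10 leading genes held the follicle markers Spon1 and Igfbp5 and the bone markers Ibsp and Runx2, so it is called here by its leading genes, although the class values count it as follicle-like. At E15.5 the mandibular follicle-like cluster, led by Itgbl1, Tfap2b and Pappa2, was at 147 (133 to 163) and the maxillary follicle-like class at 41.0. Maxillary clusters led by Pdzrn4, Ibsp and Mmp13 were at 361 (339 to 385) at P1 and 129 (116.6 to 143) at E15.5. The P1 papilla-like clusters, high in Bmp2, had at most 2.0 CPM of Bmp3. After thinning, 50.5% of cells of the P1 mandibular cluster led by Bmp3, Mdga2 and Ibsp held a Bmp3 UMI (68.4% before), against 0.216% of immune and erythroid cells (0.427% before), with median depths of 9607 and 5364 UMIs and 1 of the 98 cells left out.

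Bmp6 was highest in different classes in each library and scarce in epithelium at P1. The leading named class was osteoblast-like at E15.5 maxillary, facial mesenchyme-like at P1 maxillary, follicle-like at E15.5 mandibular and endothelial at P1 mandibular, and its interval overlapped that of the next class in all 4. In mesenchyme-like cells it was at 31.1 and 13.2 CPM at E15.5 and at 19.3 and 12.9 at P1. In epithelium-like cells it was at 27.3 and 8.36 at E15.5 and at 2.83 and 1.02 at P1. Mesenchymal classes named at both stages varied. Bmp6 was at 77.6 and 14.7 (E15.5, then P1) in maxillary papilla-like cells (log2 ratio -2.40, -2.68 to -2.13). Maxillary connective tissue fibroblast-like cells were at 4.06 and 12.9 (1.67, 1.11 to 2.25). Mandibular follicle-like cells were at 37.8 and 21.7 (-0.80, -1.51 to -0.14), the P1 value being that of the cluster led by Bmp3, Mdga2 and Ibsp. Mandibular jaw mesenchyme-like cells were at 5.59 and 1.86 (-1.59, -2.53 to -0.74). Mandibular tendon or ligament-like cells were at 21.7 and 25.8 (0.25, -0.28 to 0.79). Bmp6 in P1 maxillary mesenchyme was at 12.1 in the shared set and 54.1 in the rest, and in epithelium it was at 0.751 and 10.8. The E15.5 maxillary osteoblast-like cells were at 91.1 (80.3 to 103), and their interval overlapped that of the papilla-like cells at 77.6 (67.6 to 88.7). Facial mesenchyme-like cells of the P1 maxillary library, 2 of whose 289 cells had shared barcodes, were at 67.7 (50.4 to 89.0). Mandibular follicle-like cells at E15.5 were at 37.8, and endothelial cells were at 36.8 in the E15.5 mandibular and 39.9 in the P1 mandibular molar. Maxillary endothelial cells were at 21.5 at E15.5 and 20.3 at P1. Clusters without a compartment name held 522 of the 1215 Bmp6 UMIs of the E15.5 mandibular library, against 469 in mesenchyme-like cells, and the largest of them was led by the bone genes Ibsp, Spp1 and Mmp13. A P1 mandibular cluster of 24 cells led by Vtn, Asic2 and Ptgds had 726 (630.5 to 832.5) of Bmp6, 247 of Bmp7 and 162 of Bmp5. It was left without a subtype name but counted as mesenchyme-like, and its 24 cells limit it to 206 Bmp6 UMIs. These are part of the 775 Bmp6 UMIs behind the P1 mandibular mesenchyme level of 12.9. The level without them was not computed.

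Across the ligands and libraries, a difference was counted where levels differed at least 2-fold and the higher one reached 10 CPM. By this rule 3 of the 24 ligand and library pairs were higher in epithelium. These were Bmp7 in both E15.5 libraries and Bmp5 in P1 mandibular. The share of all genes tested that passed in that direction was 10.2% in E15.5 maxillary, 13.2% in E15.5 mandibular, 11.2% in P1 maxillary and 10.4% in P1 mandibular. Mesenchyme was higher in 12 pairs, against 15.6%, 15.53%, 13.6% and 15.52% of all genes tested. Bmp3 was in this group in all 4 libraries, Bmp2 in all but E15.5 maxillary, Bmp6 in both P1 libraries and Bmp4 in both E15.5 libraries. Bmp5 in E15.5 mandibular completed it. The E15.5 mandibular calls of Bmp2 and Bmp5 rested on 16 and 3 epithelial UMIs and could not be assessed with cells thinned, where no epithelial cell held a UMI of either. With 6 ligands per library these counts are a description, and nothing particular to the family was read from them.

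Between the stages, 8 of the 24 combinations of ligand, jaw and compartment were higher at P1; 19 of the 24 reached 10 CPM. Epithelial Bmp4 and Bmp5 and mesenchymal Bmp2 and Bmp7 accounted for all of them, each in both jaws. Of all genes tested, 9.7% and 8.69% were higher at P1 in maxillary and mandibular epithelium, and 5.85% and 7.7% in mesenchyme. Epithelial Bmp2 and Bmp6 were lower at P1 in the maxillary molar, against 5.47% of all genes tested. The epithelial classes named at both stages of that jaw took different directions for Bmp2. It was at 15.8 and 21.3 in suprabasal cells (E15.5, then P1; log2 ratio 0.43, -0.12 to 0.96), 2.40 and 11.6 in gland-like cells (2.28, 0.52 to 4.38), and 9.99 and 0.755 in cells resembling inner dental epithelium (-3.73, -5.69 to -2.23). Bmp6 was at 35.8 and 19.1 in suprabasal cells (-0.90, -1.45 to -0.40) and 4.20 and 10.6 in gland-like cells (1.33, -0.21 to 2.96), and cells resembling inner dental epithelium were at 20.3 CPM at E15.5 and held 0 UMIs of it at P1, where 3 counts would be 0.566 CPM. The Bmp2 call was lost, with a log2 ratio of 0.28, when doublets were not removed. With shared barcodes left out of the P1 maxillary library, none of the 4 maxillary combinations called higher at P1 was called. Bmp2 and Bmp7 in mesenchyme were then at log2 ratios of 0.94 and 0.80, and epithelial Bmp5 at 0.61 and Bmp4 at -0.62. Mesenchymal Bmp5 was higher at P1 in that set, at 23.9 against 6.80. No ligand was called lower in mandibular epithelium (8.2% of all genes tested) or in mesenchyme (3.95% maxillary and 3.47% mandibular). Maxillary mesenchymal Bmp6, at 31.1 at E15.5, was at 12.1 in the shared set and 54.1 in the rest at P1. It was thus over 2-fold lower in the shared set and higher, by under 2-fold, in the rest. In mandibular epithelium 3 of the ligands reached 10 CPM, and Bmp6, which did not, was at 8.36 at E15.5 and 1.02 at P1, a log2 ratio of -3.04 (-3.97 to -2.09).

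**Figure D3:**
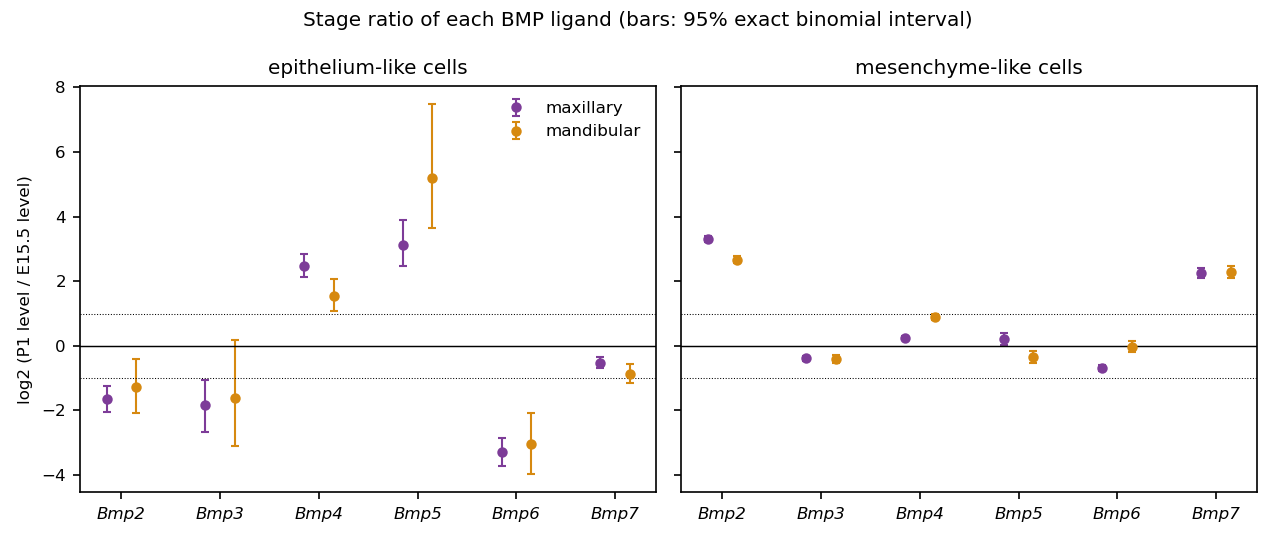
Log2 ratio of the P1 to the E15.5 level of each ligand in epithelium-like (left) and mesenchyme-like (right) cells, with 95% exact binomial intervals of counting error; dotted lines mark 2-fold. Bmp2 and Bmp7 in mesenchyme lie above the upper dotted line in both jaws, as do Bmp4 and Bmp5 in epithelium.

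Between the jaws, 4 of 24 combinations differed at least 2-fold with a level of 10 CPM, which 18 of the 24 reached. Epithelial Bmp6 at P1 differed 2.78-fold but stayed under that level in both jaws. At E15.5 Bmp6 was higher in the maxillary molar in epithelium (log2 ratio 1.71, 1.04 to 2.46) and in mesenchyme (1.24, 1.09 to 1.39), against 2.36% and 3.55% of all genes tested. The mesenchymal Bmp6 call depended on cluster names: with unnamed clusters counted as mesenchyme the levels were 31.1 and 23.7, a log2 ratio of 0.39, and Bmp5 was then lower in the maxillary molar (-1.31). In the 3 mesenchymal classes named in both jaws the Bmp6 difference was under 2-fold, with log2 ratios of 0.18 (-0.13 to 0.51) in follicle-like, -0.06 (-0.72 to 0.57) in jaw mesenchyme-like and 0.68 (0.18 to 1.20) in tendon or ligament-like cells. No ligand in E15.5 mesenchyme was lower there, where 1.6% of all genes tested were. Epithelial Bmp4 was lower in the maxillary molar at E15.5 (-1.33, -1.93 to -0.72; 3.5% of all genes tested), as was epithelial Bmp5 at P1 (0.972% of all genes tested). No ligand in P1 mesenchyme passed, where 1.36% and 1.69% of all genes tested did. Bmp6 was at a log2 ratio of 0.57 (0.45 to 0.70), and its mandibular level included the Vtn-led cluster of 24 cells. Bmp2 came closest there, at a log2 ratio of 0.73 (0.68 to 0.77). With the P1 maxillary library limited to shared barcodes its level of 214 against 111 was just under the 2-fold limit. In the same set Bmp5 did pass the 2-fold rule, lower in the maxillary mesenchyme at 4.58 against 10.6. With the shared barcodes left out the count of differences between jaws was 10, and Bmp2 was lower in the maxillary mesenchyme. In mesenchyme Bmp2 was then at 35.2 against 111 and Bmp7 at 12.6 against 41.8, while Bmp6 was at 54.1 against 12.9 and Bmp5 at 23.9 against 10.6.

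**Figure D4:**
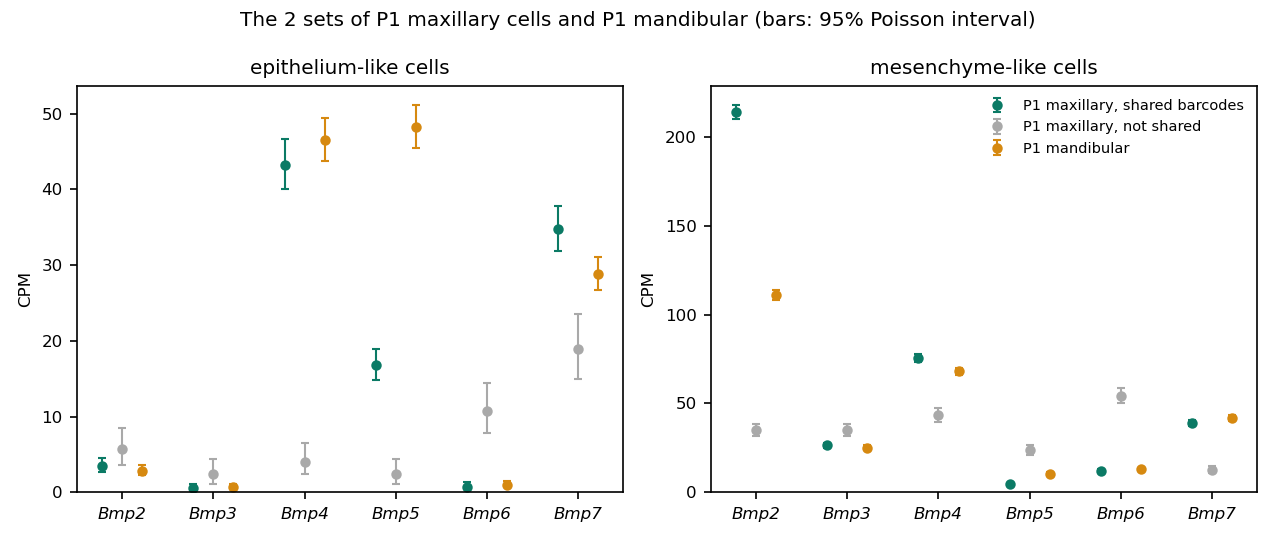
Level of each ligand (CPM) in P1 maxillary cells with shared barcodes (green), P1 maxillary cells without (grey) and P1 mandibular cells (orange), for epithelium-like and mesenchyme-like cells; bars are 95% Poisson intervals. Bmp2 in mesenchyme was at 214, 35.2 and 111, and Bmp6 at 12.1, 54.1 and 12.9.

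Among the receptors and SMADs, Bmpr1a, Bmpr2 and Smad1 were present in both compartments of all 4 libraries. Bmpr1a was at 129 to 188 CPM and Bmpr2 at 111 to 176 in each compartment of each library, and Smad1 was at 50.9 to 66.9. Of 7 receptor genes, 7 were tested between the compartments in each library. Acvr2b was at least 2-fold higher in epithelium in all 4, and Acvrl1, a receptor of endothelial cells, higher in mesenchyme in all 4, with 0.645 and 1.23 CPM in P1 epithelium. Between 10.2% and 13.2% of all genes tested were higher in epithelium, depending on the library, and between 13.6% and 15.6% higher in mesenchyme. Bmpr1b was at 76.2 in epithelium and 6.99 in mesenchyme of the P1 maxillary library, and at 3.18 and 19.1 in P1 mandibular. At E15.5 it was at 44.4 and 25.6 in the maxillary and 44.9 and 35.7 in the mandibular library. Its P1 maxillary levels are not given by barcode set, so no order of the jaws was read from them. Smad9 was at 1.32 in E15.5 mandibular epithelium, from 3 UMIs. Of the other BMP and GDF ligands, Bmp8a was at 4.05 and 4.84 in E15.5 epithelium and 59.5 and 85.5 in P1 epithelium. Gdf10 was at 51.3 and 52.5 in E15.5 mesenchyme and 39.6 and 17.7 at P1.

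BMP response genes and antagonists were compared between the stages in the same way. Their P1 maxillary levels are not given by barcode set, so the make-up of that library cannot be told apart from stage. In maxillary mesenchyme 7 of 9 tested response genes were at least 2-fold higher at P1 and none were lower, and in mandibular mesenchyme 6 of 8 were higher and none lower, against 5.85% and 7.7% of all genes tested that were higher. In epithelium 4 of 7 (maxillary) and 2 of 7 (mandibular) were higher and none lower, against 9.7% and 8.69%. Id1, Id3 and Id4, which encode inhibitors of basic helix-loop-helix factors, were among those higher in mesenchyme in both jaws, together with Smad6, Bambi and Msx2. Id3 reached 646 CPM in P1 maxillary and 534 in P1 mandibular mesenchyme, from 265 and 189. The median log2 ratio of the response genes was 1.68 and 1.74, beside -0.02 over all genes tested in each jaw. Of the antagonists, 1 of 9 was higher and 4 lower at P1 in maxillary mesenchyme, and none of 8 was called in mandibular mesenchyme. Of all genes tested 3.95% and 3.47% were lower in maxillary and mandibular mesenchyme. In epithelium Fst, which encodes follistatin, was the only one of 4 called in each jaw, at 231 and 88.0 at E15.5 and 21.8 and 27.0 at P1, where 5.47% (maxillary) and 8.2% (mandibular) of all genes tested were lower. Sostdc1, an antagonist which binds BMPs and WNT co-receptors, was at 223 to 308 in the epithelium of the 4 libraries. In E15.5 mesenchyme it was at 346 (maxillary) and 127 (mandibular). It was among the antagonists lower at P1 in maxillary mesenchyme, and was called higher in epithelium than in mesenchyme in P1 maxillary only.

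The ligands differed from one another in pattern across classes. Over 62 named classes of the 4 libraries with at least 20 cells, on the scale of log2(CPM + 1), the pairwise Pearson r ran from 0.03 (Bmp6 and Bmp7) to 0.54 (Bmp3 and Bmp6). These classes share libraries and depth, and the values are descriptions. The genes most like each ligand, among 9314 genes, were Tmem119, Emilin2 and Abca9 for Bmp2 (r of 0.71, 0.68 and 0.67), and Dnm1, Tmem100 and Gm26771 for Bmp3 (0.82, 0.81 and 0.80). For Bmp4 they were Fgfr1, Rab23 and Fkbp14 (0.82, 0.79 and 0.78), and for Bmp5 Cacna1c, Lhfp and Pcdh18 (0.72, 0.67 and 0.65). For Bmp6 they were Piezo2, Cyp26b1 and Lepr (0.76, 0.74 and 0.74), and for Bmp7 Ptpru, Flywch2 and Cxadr (0.83, 0.81 and 0.80).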

How the data were processed

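The authors dissociated pooled molars, prepared 10x 3′ v3.1 libraries and made the deposited count matrices with Cell Ranger 7.0.1 (file headers) on mm10; the values were whole-number UMI counts per gene and barcode, without normalization. Barcodes with at least 1000 UMIs were kept, shared P1 barcodes were dropped from the mandibular library, and barcodes above the median mitochondrial share by 3 MADs were removed (950, 518, 1229 and 1321, in the order E15.5 maxillary, E15.5 mandibular, P1 maxillary, P1 mandibular). The top Scrublet scores were then removed as doublets (0.8% per 1000 barcodes; 666, 327, 2000 and 619). Cells were clustered with scanpy 1.11.5 and leidenalg 0.10.2 (2000 variable genes without mitochondrial, ribosomal and BMP pathway genes, 40 components, 15 neighbours, resolution 1), giving 31, 26, 37 and 34 clusters, of which 0, 2, 1 and 1 stayed unnamed.

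Clusters were named from marker lists by their position between low and highest clusters, and the thresholds of this step were set after the clusters were seen; other cell type names may therefore differ from the study's. Counts were summed per class and scaled to CPM within the class, without a length term. Intervals are exact Poisson or exact binomial at 95%; they and the floor of 3 counts for a count of 0 cover counting error only, since no condition was replicated. For shares of cells, cells were thinned to 2000 UMIs and shallower cells were left out (448, 465, 2259 and 524 in the order above). The procedure was tested on simulated counts. Named genes were the 6 ligands, the 3 genes most like each by Pearson r (at least 50 CPM in a class), and the most abundant genes of fixed pathway lists. Other genes named, such as Smad9, Acvrl1, Bmpr1b, Fst and genes that mark clusters, jaw or sex (Dspp, Hand2, Ddx3y), were chosen after their values were seen. The members and lists were chosen with earlier results of these data known. In all, 14 alternatives were run, 4 of them chosen after seeing the data.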

Additional observations from a re-analysis of the deposited data

Results flagged for a closer look

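Epithelial over mesenchymal Bmp7 had a log2 ratio of 2.63 in the E15.5 maxillary library and -0.13 in its P1 counterpart. The mandibular libraries gave 2.61 (E15.5) and -0.53 (P1). These were picked out because the stages took opposite directions, each outside a counting interval of 0. With shared barcodes left out, the P1 maxillary ratio was 0.58, so there the opposite direction rests on the cells with shared barcodes. Mandibular Bmp5 had the reverse order, at -3.36 for E15.5, where epithelium held 3 UMIs, and 2.18 for P1. With 1 library per condition these differences between stages were not tested. Another value came from cells outside the comparisons, because their cluster had no compartment name. Bmp6 was at 91.8 CPM in an E15.5 mandibular cluster of 284 cells led by Ibsp, Spp1, Mmp13 and Col2a1, above its level of 0.327 CPM in immune and erythroid cells of that library.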

How the results depend on the processing

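Each group was 1 library, and no paired analysis, such as pairing the stages by jaw, was run. Stage ratios are given within each jaw, and a joint fit of stage and jaw, which would leave 1 residual degree of freedom, was not run. No group keeps a library when 1 is left out. The counts of ligands higher in epithelium and higher in mesenchyme stayed within 1.5 times their main value under all alternatives run, and so did the count higher at P1, 8 in the main analysis, except for 5 with shared barcodes left out of the P1 maxillary library (chosen after seeing the data). The count lower at P1, 2 in the main analysis, was 1 without doublet removal, 6 with no minimum level and 1 with suprabasal, gland-like and nasal epithelium left out (chosen after seeing the data). The count differing between jaws, 4 in the main analysis, was 10 when shared P1 barcodes were dropped from both libraries, 10 with them left out of the P1 maxillary library in the main clusters, and 2 with those epithelial classes left out. The count of ligand and library pairs whose highest named class was epithelial, 5 of 24, was 3 with shared barcodes dropped from both and 3 at resolution 0.5. Of 905 single ratios recomputed, 692 stayed within the main counting interval, 211 moved out of it and 2 that passed the 2-fold rule changed sign: without doublet removal maxillary epithelial Bmp2, P1 over E15.5, was 0.28, and with shared barcodes left out maxillary epithelial Bmp4, P1 over E15.5, was -0.62. Of the ratios that did not pass the rule, 42 of these values had the other sign. Leaving out the shared barcodes gave 9 of all 44 sign changes, among them P1 mesenchymal Bmp2, maxillary over mandibular, at -1.66. A further 10 values were bounds, with a count of 0 on a side, and are not counted. Leaving out suprabasal cells removed the whole E15.5 mandibular epithelium, so its ratios could not be computed there. The count of highest classes was not run with cells named singly, since those names stop at compartments, nor with unnamed clusters counted as mesenchyme (also chosen after seeing the data). The E15.5 mandibular epithelium had 91 cells, and 3 counts there are 1.32 CPM.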
